A study of Mus musculus with 4 samples.

Results

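The respiratory chain genes were taken as every probe set with a single platform gene symbol that begins with Nduf, Sdha, Sdhb, Sdhc, Sdhd, Uqcr, Cox4i, Cox5, Cox6, Cox7 or Cox8. These were 154 of 45101 probe sets and stood for 77 of 18193 named genes. A further 10 probe sets paired such a symbol with a second one and were left out. Of the 154, 129 passed the filter on low values (a mean log2 value over the 4 arrays at or above the median of all probe sets, which corresponds to a signal of 63.9), which left 71 genes. Each gene is represented here by its brightest probe set that passed. The genes were chosen by symbol and not by their values, although earlier results of these data were known.

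The cells were satellite cells, which serve as the stem cells of adult skeletal muscle, and the study compared cells that carry or lack the calcitonin receptor gene Calcr. Control mice were Pax7-CreERT2::Calcr+/+::Rosa-YFP and conditional knockout (cKO) mice were Pax7-CreERT2::Calcr flox/flox::Rosa-YFP. Both groups thus carried a tamoxifen-dependent Cre recombinase driven by the satellite cell gene Pax7 and a YFP reporter that Cre switches on, and both were given tamoxifen. The mice were 10 weeks old per the labels. Cells with YFP were sorted 2 weeks after that treatment and went to RNA extraction without culture. There were 2 biological replicates per group, each on its own array, called control 1, control 2, cKO 1 and cKO 2 after the replicate numbers in the titles. Nothing in the labels says how many mice were pooled in a sample or whether equal numbers mark a shared day or litter. The p-values below measure the spread between these samples only.

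Complexes I to IV are the electron-transferring part of oxidative phosphorylation in the inner mitochondrial membrane. Complex I oxidises NADH and complex II oxidises succinate. Both pass electrons to ubiquinone, complex III carries them on to cytochrome c, and complex IV hands them to oxygen. Satellite cells at rest are small cells with few mitochondria, and their mitochondrial content and respiration are known to rise when they activate. All genes named here are nuclear. Several complex IV subunits exist as a widely expressed form and a form typical of muscle, lung or testis, which allows the makeup of the complex to differ between cell types.

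The 4 arrays had median signals of 70.4, 64.3, 68.8 and 57.8 in the order control 1, control 2, cKO 1 and cKO 2, an order that all values below follow within a group. Calcr read 1268 and 1424 in control cells and 568 and 684 in cKO cells, which runs with the labels. The sources used here do not place its probe set inside or outside the deleted stretch. The 7 satellite cell markers included Pax7, Myf5 and Calcr itself. They summed to signals of 15220 and 20376 in control and 14795 and 15692 in cKO cells, with none near 0. The lower reading of Calcr in cKO cells is part of these sums. All 7 markers were highest on control 2, as were 39.8% of all named genes. Markers of other cell types were also present, and those of endothelial cells and pericytes followed the replicate number. The 12 endothelial markers summed to 8347 on control 1 and 7696 on cKO 1, against 1082 on control 2 and 1274 on cKO 2, and all 12 were higher on both arrays numbered 1. The 9 pericyte and smooth muscle markers summed to 14137 and 15896 on the arrays numbered 1 and to 7257 and 6144 on those numbered 2, with 8 of 9 not overlapping. The 13 muscle fibre markers summed to 5678 and 3024 in control and 3217 and 4419 in cKO cells. Marker sums for leukocytes ran from 443 on cKO 2 to 1847 on control 2, and those for fibro-adipogenic progenitors from 13837 on control 1 to 16152 on control 2. Only 1 Schwann cell marker, Sox10, was measured, with signals from 5.04 to 47.3. No marker was at 0 on any array, but the lowest signal was 0.76, for the leukocyte marker Itgam on cKO 2. The filter was passed by 4 of 8 leukocyte markers and by 5 of 6 measured fibro-adipogenic markers. Pdgfra, the 1 that did not, read from 36.0 to 58.2. In bulk RNA of this kind, fewer cells of a type and less RNA per cell cannot be told apart.

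The clearest feature of the respiratory chain genes was a low reading on control 1. Of the 71 genes, 49 had their lowest signal of the 4 arrays there (69.0%), against 31.3% of all 10140 named genes. Another 16 were lowest on cKO 2, and 3 each on control 2 and cKO 1. After subtraction of each gene's own mean, the median gene stood at -0.21 on control 1, 0.15 on control 2, 0.13 on cKO 1 and -0.02 on cKO 2, in log2 units of the signal. The same medians over all named genes were -0.06, 0.11, 0.05 and -0.08. The range across arrays was narrow for most genes. The highest array exceeded the lowest by a median of 1.45-fold, from 1.07-fold for Uqcrb to 5.23-fold for Ndufa4l2, both named here for lying at the ends of this range. Respiratory chain genes are bright, with a median signal on control 1 of 962 against 298 for all named genes, and the part of brightness in these shares was not tested.

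**Figure D1:**
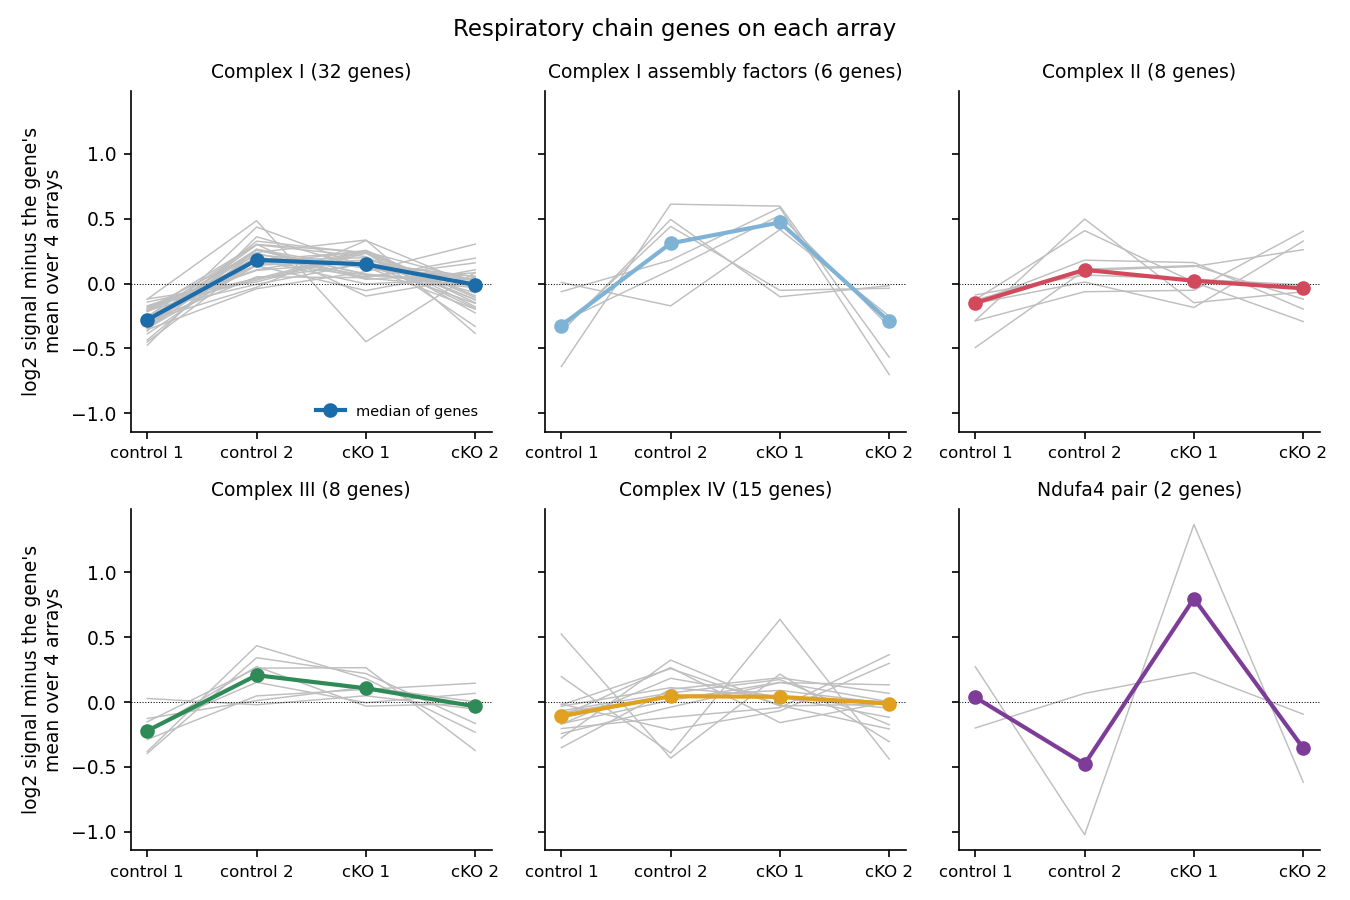
Signal of the 71 respiratory chain genes on each array, as log2 signal minus the gene's mean over the 4 arrays (y axis), by array (x axis) and by complex (panels). Grey lines are genes and coloured points are medians; in complex I the median is lowest on control 1, while the pair formed by Ndufa4 and Ndufa4l2 is highest on cKO 1.

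The genotype comparison asks whether these genes differ between cKO and control cells. In limma, 0 of 22519 probe sets passed an adjusted p of 0.05, which is 0% of those tested, and 163 (0.724%) had an unadjusted p under 0.05. Calcr itself did not pass, at a log2 difference of -1.11 with an unadjusted limma p of 0.00292. The fit thus did not call even the targeted gene, and its 0 calls do not show an absence of change. Among the 129 respiratory chain probe sets, 0 passed and 0 had an unadjusted p under 0.05, and the smallest adjusted limma p was 0.99999. The exact permutation test, 2-sided with 2 against 2 samples, cannot give a p below 0.333. As a description, 48 of 71 genes were higher and 23 lower in cKO cells, with a median log2 difference of 0.07 and a range from -0.36 to 0.75. Over all named genes, 42.7% were higher and the median was -0.04. In 8 genes both cKO arrays exceeded both control arrays (11.3%, against 8.53% of all named genes) and 1 had both below (1.41%, against 12.1%). The SE of a single gene's log2 difference had a median of 0.27.

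The sign of the genotype difference depended on which pair of equally numbered arrays was read. Between cKO 1 and control 1, 65 of 71 genes were higher in cKO (91.5%, against 61.7% of all named genes), with a median log2 difference of 0.36 (0.09 over all). Between cKO 2 and control 2, 58 of 71 were lower in cKO (81.7%, against 67.8%), with a median of -0.19, which was also the median over all named genes. In 55 genes the first difference was above 0 and the second below it (77.5%, against 44.8%). Without control 1 the median log2 difference between genotypes was -0.10 in place of 0.07, and without cKO 1 it was -0.03. It was 0.25 without control 2 and 0.17 without cKO 2.

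Scaling changed the second of these shifts more than the first. After quantile normalization, 91.5% of the genes were higher on cKO 1 than on control 1 (55.9% of all named genes) with a median of 0.30, and 52.1% were lower on cKO 2 than on control 2 (52.2% of all) with a median of -0.01. After each array was centred on its median the shares were 94.4% (65.2% of all) and 56.3% (53.5% of all), with medians of 0.39 and -0.04. The share lowest on control 1 was 74.6% and 88.7% under these scalings, against 34.7% and 46.3% of all named genes. The share higher in cKO cells went from 67.6% to 80.3% and 88.7%, and that of all named genes from 42.7% to 53.0% and 58.3%. By complex, the median between cKO 2 and control 2 turned from below 0 to 0.01 for complex II after quantile normalization, and to 0.09 and 0.11 for complex IV. For complex I it moved from -0.20 to -0.02 and -0.05, and for complex III from -0.18 to -0.04 and -0.03. The medians between cKO 1 and control 1 stayed above 0 in every complex under both scalings.

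**Figure D2:**
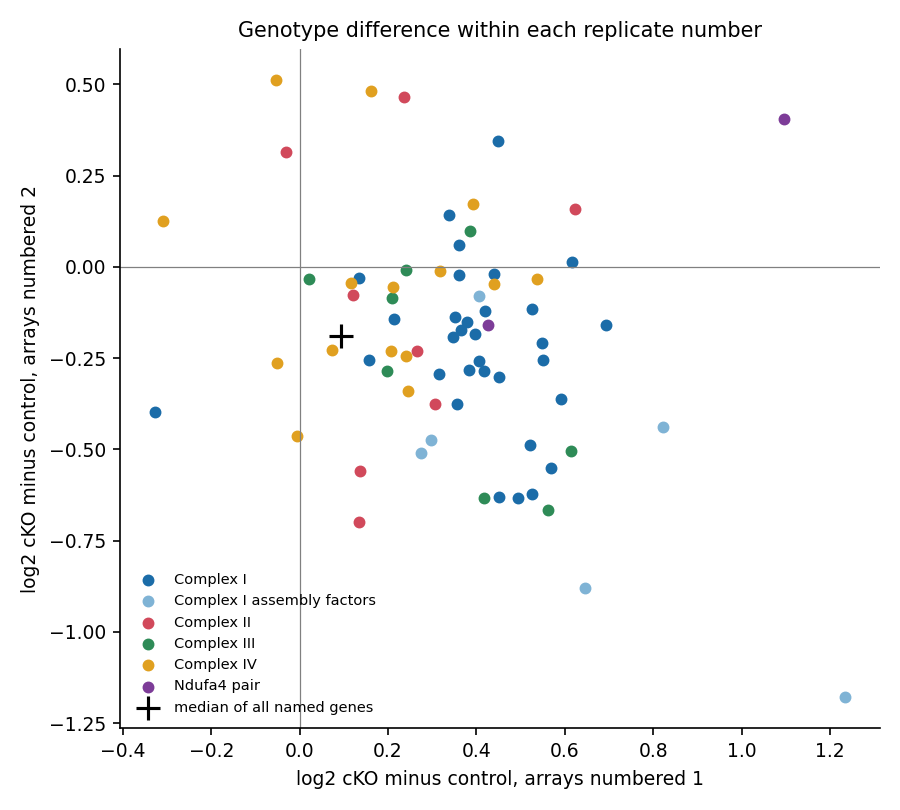
Log2 difference of cKO minus control for each of the 71 genes between the arrays numbered 1 (x axis) and between those numbered 2 (y axis), coloured by complex. Most points lie to the right of 0 and below 0, and the cross marks the median of all named genes at 0.09 and -0.19.

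The second comparison sets the arrays numbered 1 against those numbered 2, across genotypes. What the number stands for is not given in the labels. In limma, 521 of 22519 probe sets (2.31%) passed an adjusted p of 0.05, of which 477 were higher and 44 lower on the arrays numbered 1; with median centring the split was 394 and 146. None of the 129 respiratory chain probe sets passed in this fit. At an unadjusted p under 0.05 there were 10 (7.75%, against 13.8% of all probe sets), 3 higher and 7 lower on number 1. By brightest probe set, 20 genes were higher and 51 lower on number 1 (71.8% lower, against 52.9% of all named genes), with a median log2 difference of -0.10 (-0.03 over all). Both arrays numbered 1 lay above both numbered 2 in 5 genes (7.04%, against 21% of all named genes) and below them in 15 (21.1%, against 22.4%). The share of non-overlapping genes below was thus near the background, and that above was under it.

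Centring on array medians moved the median over all named genes in this comparison from -0.03 to -0.21, and that of the respiratory chain genes from -0.10 to -0.29, with 91.5% lower on number 1 (72.1% of all). Quantile normalization gave -0.10 over all and -0.17 over the respiratory chain genes. In the unscaled values the number difference lay mostly in the control cells. There control 1 was below control 2 in 65 of 71 genes with a median of -0.37 (-0.17 over all named genes). In contrast, cKO 1 was above cKO 2 in 50 genes with a median of 0.12 (0.13 over all). The median signals of cKO 1 and cKO 2 were 68.8 and 57.8. Centring on array medians lowers cKO 1 against cKO 2 by more than the median difference of 0.12, which turns its sign. The sign within the cKO cells thus depends on scaling. The counts within each genotype were not repeated after scaling. Without control 1 the median number difference over the respiratory chain genes was 0.08. The count of probe sets that passed over the whole table was 252 without control 1, 1755 without control 2, 267 without cKO 1 and 1448 without cKO 2.

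**Figure D3:**
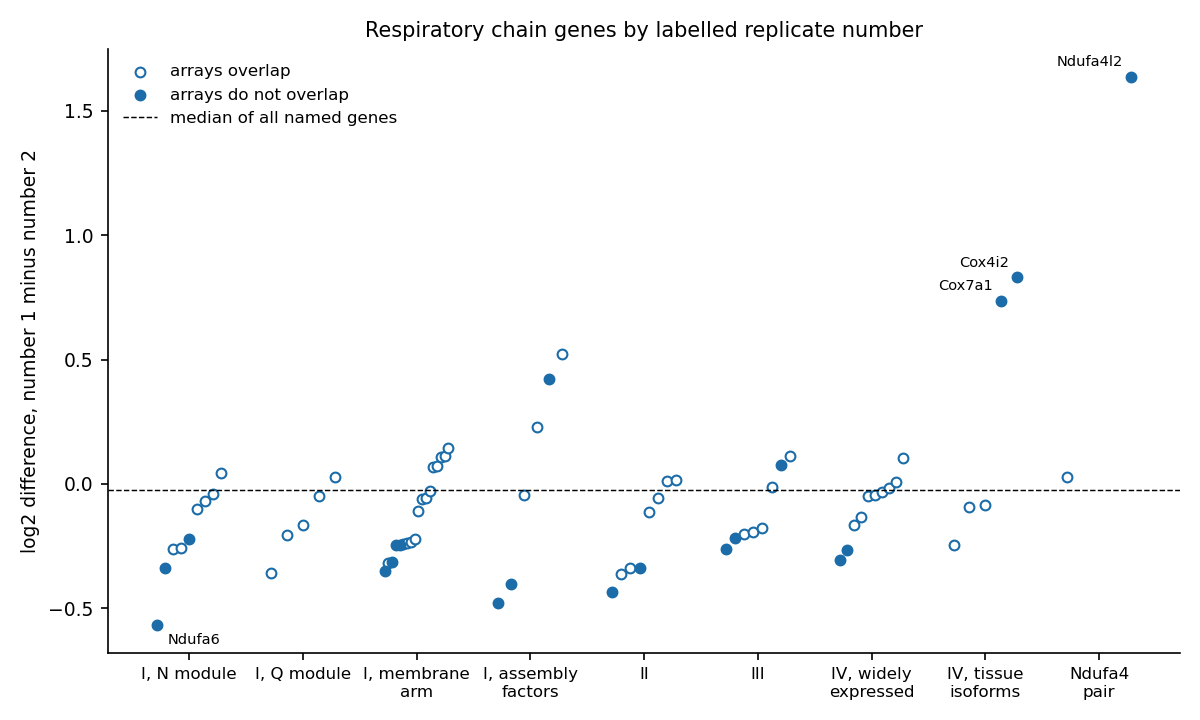
Log2 difference between the arrays numbered 1 and those numbered 2 for each gene (y axis), by complex and module (x axis). Filled points are genes whose arrays do not overlap between the numbers; Ndufa4l2 at 1.64, Cox4i2 at 0.83 and Cox7a1 at 0.74 stand above the rest, and Ndufa6 at -0.57 is the lowest.

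Promoter sequence is shown for 5 genes, since most subunits read low on the same array while some tissue forms described below did not. Of the 5, Cox6a1, Ndufs3 and Cox7a2 were lowest on control 1, Sdhb on cKO 2 and Cox7a1 on control 2. Windows of 250 bases before the annotated start were found for 63 of the 77 genes in a RefSeq table (mouse build GRCm38.p6), and the first listed window of a gene was used. Capitals mark matches, on either strand, to 2 short words: GCGCATGC, the core of the site of nuclear respiratory factor 1, and CCGGAAG, a site of ETS factors such as the GA-binding protein subunit Gabpa. Both factors are known regulators of respiratory chain genes. Cox6a1 (chr5:115348959-115349208, minus strand) holds both words, the first as a pair of overlapping matches. Sdhb (chr4:140961021-140961270, plus strand) holds the first and Ndufs3 (chr2:90904722-90904971, minus strand) the second. Cox7a2 (chr9:79759854-79760103, minus strand) and its muscle counterpart Cox7a1 (chr7:30183921-30184170, plus strand) hold neither. These partner forms are shown because Cox7a1 was higher on both arrays numbered 1 while Cox7a2 was not. The log2 difference of Cox7a2 between the numbers was -0.03 (SE 0.12).
Cox6a1: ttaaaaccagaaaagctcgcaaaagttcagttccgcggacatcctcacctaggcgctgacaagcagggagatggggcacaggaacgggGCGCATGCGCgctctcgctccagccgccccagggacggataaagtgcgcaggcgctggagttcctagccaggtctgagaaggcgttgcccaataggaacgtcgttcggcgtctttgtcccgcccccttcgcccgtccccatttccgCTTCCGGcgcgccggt
Sdhb: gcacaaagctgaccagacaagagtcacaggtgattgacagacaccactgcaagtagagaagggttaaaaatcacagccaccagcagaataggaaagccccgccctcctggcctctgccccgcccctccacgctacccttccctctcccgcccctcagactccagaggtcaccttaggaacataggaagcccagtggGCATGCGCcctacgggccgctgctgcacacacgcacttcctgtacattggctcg
Ndufs3: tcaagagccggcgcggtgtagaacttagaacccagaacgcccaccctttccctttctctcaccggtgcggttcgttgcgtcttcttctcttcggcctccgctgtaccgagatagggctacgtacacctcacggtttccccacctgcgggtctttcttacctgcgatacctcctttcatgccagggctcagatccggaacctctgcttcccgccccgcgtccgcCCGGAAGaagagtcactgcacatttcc
Cox7a2: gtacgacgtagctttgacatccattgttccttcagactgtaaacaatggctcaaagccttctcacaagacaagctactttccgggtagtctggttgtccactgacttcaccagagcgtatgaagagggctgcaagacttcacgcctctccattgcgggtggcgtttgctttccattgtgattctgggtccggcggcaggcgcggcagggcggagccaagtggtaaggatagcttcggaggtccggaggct
Cox7a1: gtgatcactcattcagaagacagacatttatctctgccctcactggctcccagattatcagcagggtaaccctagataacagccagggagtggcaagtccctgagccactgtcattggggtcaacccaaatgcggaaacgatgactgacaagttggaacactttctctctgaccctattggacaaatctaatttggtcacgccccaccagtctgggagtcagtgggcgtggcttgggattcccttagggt

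Over the 63 windows the nuclear respiratory factor 1 core was found in 5 genes (7.94%, against 2.32% of 27025 genes with such a window), namely Cox6a1, Sdhb, Ndufa6, Ndufa8 and Ndufaf4. The ETS word was found in 12 (19.0%, against 7.05%). AAGATGGCG, a word of the factor YY1, was in 0 windows (0.607% of all), and ACGTG, the hypoxia response core, in 11 (17.5%, against 16.6%). Windows of respiratory chain genes had a median GC content of 57.6% and 14 CpG dinucleotides, against 52% and 6 over all genes. The window of Cox7a1 held 4 CpG and that of Cox7a2 held 14. A match is a description of the letters and no evidence of binding.

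Complex I had 32 of its 34 measured subunit genes above the filter. Control 1 was below control 2 in 32 of 32 genes and was the lowest of all arrays in 26. Of the 32, 26 were higher and 6 lower in cKO cells (median log2 difference 0.09), and 25 were lower on the arrays numbered 1 (median -0.18). Between the arrays numbered 1, cKO was higher in 31 of 32 with a median of 0.41, and between those numbered 2 it was lower in 28 with a median of -0.20. None passed either test.

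The N module is the tip of the peripheral arm where NADH is oxidised. Ndufv1, which binds NADH and the flavin, read 1085 and 1466 in control and 1390 and 1131 in cKO cells, with the lowest value on control 1 and genotypes that overlap. Ndufv2, a partner that carries an iron-sulphur cluster, read 806 and 1062 in control and 935 and 962 in cKO cells, again lowest on control 1. A second Ndufv2 probe set, with a suffix that marks possible cross-hybridisation, fell further apart, at 216 and 923 in control and 788 and 849 in cKO cells. That set had an unadjusted limma p of 0.0452 between numbers, with control 1 the array that stood apart. It passed without cKO 1, at an adjusted limma p of 0.0187.

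Ndufs1, the large iron-sulphur subunit, read 327 and 391 in control and 501 and 394 in cKO cells. Ndufs4, an accessory subunit that steadies the N module, read 536 and 667 in control and 731 and 846 in cKO cells. Both cKO arrays lay above both control arrays in these genes, narrowly for Ndufs1, and the log2 differences were 0.31 (SE 0.32) and 0.40 (SE 0.28). The other probe sets of Ndufs4 did not share this: 1 kept set read 134 and 124 in control and 125 and 66.6 in cKO cells, a log2 difference of -0.50.

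Ndufa6, an accessory subunit of the LYR family, was 1 of 6 complex I genes not lowest on control 1. It read 588 and 895 in control and 469 and 679 in cKO cells, with cKO 1 the lowest array, where the other 5 (Ndufa9, Ndufa1, Ndufab1, Ndufb2 and Ndufb6, listed to complete the count) were lowest on cKO 2. Both arrays numbered 1 lay below both numbered 2, with a log2 difference of -0.57 (SE 0.26, adjusted limma p 0.368). Its genotype difference of -0.36 (SE 0.34) was the lowest of all 71 genes, and it was lower in cKO within both numbers. Ndufa2 and Ndufa7, also accessory subunits, had their lowest signals on control 1, at 1437 and 965, against highest signals of 2127 and 1454 on control 2.

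The Q module passes electrons to ubiquinone, and 4 of its 5 genes were lowest on control 1. Ndufs3, a core subunit that carries no redox group, read 595 and 1062 in control and 898 and 826 in cKO cells. Ndufs7 and Ndufs8, which carry the clusters nearest to ubiquinone, read 962 and 610 on control 1 and between 1244 and 1385 and between 847 and 988 on the other arrays. Control 1 was the lowest array for all 3.

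Ndufa5, an accessory subunit, read 2256 and 2588 in control and 2896 and 2699 in cKO cells, with both cKO arrays higher and a log2 difference of 0.21 (SE 0.17). For Ndufs8 the 6 kept probe sets gave genotype differences from -0.61 to 0.40, so its direction depends on the probe set.

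The membrane arm, which pumps protons, had 18 genes above the filter, and cKO was higher in 18 of 18 between the arrays numbered 1 and lower in 17 between those numbered 2. Ndufb8, often used as a protein marker of complex I, read 1252 and 1491 in control and 1608 and 1469 in cKO cells. Ndufc2 read 2112 and 2682 in control and 2669 and 2963 in cKO cells. In both genes control 1 was the lowest array and the genotypes overlapped.

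Ndufb11, Ndufb3 and Ndufb5, further accessory subunits of this arm, had both arrays numbered 1 below both numbered 2. Ndufb11 read 3819 and 4788 in control and 4193 and 4688 in cKO cells, a log2 difference between numbers of -0.24 (SE 0.12, adjusted limma p 0.395). The differences for Ndufb3 and Ndufb5 were -0.35 (SE 0.22) and -0.31 (SE 0.18). Ndufc1 and Ndufb2 ran the other way, at 0.07 and 0.14, and were highest on cKO 1 with signals of 3009 and 920. The 3 kept probe sets of Ndufb2 gave genotype differences from -0.10 to 0.45.

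The complex I assembly factors help to build the complex and then leave it. Within each replicate number their median genotype differences lay farther from 0 than those of the subunits, which was not tested. They were also dimmer, with a median signal on control 1 of 211 against 1210 for the subunits. In all 6 that passed the filter cKO was higher between the arrays numbered 1 (median 0.53) and lower between those numbered 2 (median -0.49). Ndufaf2, a paralogue of the subunit Ndufa12, read 513 and 607 in control and 804 and 329 in cKO cells. Ndufaf8, which acts with Ndufaf5, read 601 and 794 in control and 1062 and 586 in cKO cells. In both genes cKO 1 was the highest array and cKO 2 the lowest. After quantile normalization and median centring the median number difference of the 6 factors turned from 0.09 to -0.03 and -0.09, and their genotype median from -0.03 to 0.07 and 0.06.

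Ndufaf4 read 305 and 269 in control and 405 and 255 in cKO cells, with both arrays numbered 1 above both numbered 2. Its partner in building the Q module, Ndufaf3, ran the opposite way, at 118 and 216 in control and 142 and 151 in cKO cells. Their log2 differences between numbers were 0.42 (SE 0.28) and -0.48 (SE 0.32), with adjusted limma p values of 0.553 and 0.556. Ndufaf2 passed the number test without control 2, at a log2 difference of 0.96 and an adjusted limma p of 0.0390, and not otherwise. A dimmer probe set of Ndufaf8 gave a genotype difference of -0.77 with an unadjusted limma p of 0.0966, the smallest of all 129 probe sets, where the brightest gave 0.19.

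Complex II is the succinate dehydrogenase, shared with the citric acid cycle. Its 8 genes passed the filter, and control 1 was below control 2 in 8 of 8, with a median difference of -0.28. Sdha, the flavoprotein, read 1945 and 2435 in control and 2404 and 1875 in cKO cells. Sdhb, the iron-sulphur subunit, read 631 and 911 in control and 692 and 561 in cKO cells, a log2 difference of -0.28 (SE 0.31). Here control 2 was the highest array and cKO 2 the lowest, while control 1 lay below cKO 1, so the genotypes overlapped.

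The membrane anchors Sdhc and Sdhd spanned 878 to 1056 and 2309 to 2569. The 4 subunits were thus higher on cKO 1 than control 1 in 4 of 4 genes (median 0.20) and lower on cKO 2 than control 2 in 4 of 4 (median -0.30). The 4 assembly factors did not all do this. Sdhaf4, which acts on Sdha, read 103 and 120 in control and 121 and 166 in cKO cells, and Sdhaf2, which adds the flavin, read 115 and 174 in control and 177 and 194 in cKO cells.

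Both cKO arrays lay above both control arrays in Sdhaf2 and Sdhaf4, with log2 differences of 0.39 (SE 0.37) and 0.35 (SE 0.38), and a second Sdhaf2 probe set gave -0.23. Sdhaf1 and Sdhaf3, which serve the iron-sulphur subunit, were lower on both arrays numbered 1, by log2 differences of -0.43 and -0.34. Their signals were 137 and 236 in control and 151 and 160 in cKO cells for Sdhaf1, and 122 and 137 in control and 119 and 171 in cKO cells for Sdhaf3. These are dim probe sets, and none passed either test.

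Complex III, the cytochrome bc1 complex, had 8 genes, 4 higher and 4 lower in cKO cells with a median of 0.02. Between the arrays numbered 1 cKO was higher in 8 of 8 (median 0.31), and between those numbered 2 it was lower in 7 (median -0.18). Uqcrfs1, the Rieske iron-sulphur protein, read 556 and 788 in control and 638 and 647 in cKO cells. Uqcrc1 and Uqcrc2 are the core proteins. Uqcrc1 read 525 and 699 in control and 701 and 450 in cKO cells, and Uqcrc2 read 983 and 1241 in control and 1285 and 1328 in cKO cells.

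The core proteins differed in their lowest array, which was cKO 2 for Uqcrc1 and control 1 for Uqcrc2, and in this complex Uqcrc2 alone had cKO arrays that both exceeded the control arrays (log2 difference 0.24, SE 0.24). Uqcrh, the hinge protein that touches cytochrome c1, read 3709 and 4778 in control and 4285 and 4505 in cKO cells, lower on both arrays numbered 1 (log2 difference -0.22, SE 0.12). Uqcr10, a small subunit, read 1891 and 2081 in control and 2235 and 2068 in cKO cells. Its 2 dimmer probe sets gave number differences of -0.82 and -0.76, with unadjusted limma p values of 0.0257 and 0.0462, against -0.01 for the brightest. The second of these passed without cKO 2, at an adjusted limma p of 0.0308.

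Complex IV, cytochrome c oxidase, divided into the widely expressed subunits and the tissue forms. Of the 10 widely expressed genes, 4 were higher and 6 lower in cKO cells (median -0.01, or 0.05 after quantile normalization and 0.09 after median centring), and control 1 was below control 2 in 10 of 10. Cox4i1, the widely expressed form of the largest nuclear subunit, read 2955 and 4476 in control and 3505 and 3540 in cKO cells. Cox6a1 read 4295 and 4864 in control and 5355 and 4827 in cKO cells. Both were lowest on control 1, and the 2 cKO arrays lay within the range of the control arrays for Cox4i1.

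Cox6b1, at the face that receives cytochrome c, read 2239 and 3058 in control and 3250 and 2992 in cKO cells. Cox7a2 read 4005 and 4487 in control and 4633 and 4320 in cKO cells. The small subunit Cox8a spanned 1125 on control 1 to 1437 on control 2. Each of these had its lowest signal on control 1, and none had genotypes that did not overlap. In 1 of the 10 widely expressed genes (10%, against 12.1% of all named genes) both cKO arrays were below both control arrays. This was Cox7c, named after its values were seen, which read 189 and 230 in control and 189 and 166 in cKO cells. Its values on control 1 and cKO 1 were equal at this precision. The 2 kept probe sets of Cox7c gave genotype differences of -0.23 and 0.18, so its direction depends on the probe set.

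Cox7a2l, a Cox7a relative that joins complexes III and IV into supercomplexes, was lower on both arrays numbered 1 in all 3 of its probe sets. The brightest read 3672 and 4753 in control and 3543 and 3956 in cKO cells, a log2 difference between numbers of -0.27 (SE 0.13, adjusted limma p 0.413). The second read 2413 and 3752 in control and 2312 and 2961 in cKO cells, at -0.50 with an adjusted limma p of 0.177. After median centring this second set passed, at an adjusted limma p of 0.0337. Without cKO 2 it passed at 0.0110, and the third set passed at 0.00286. Neither passed in another setting run. In none of the 3 did the genotypes separate.

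The tissue forms of complex IV did not all share the low reading on control 1. Of the 5 that passed the filter, 2 were lowest there, and control 1 was above control 2 in 3. Cox7a1, the heart and skeletal muscle form, read 256 and 132 in control and 207 and 144 in cKO cells. Cox4i2, the form known from lung and from pericytes and responsive to oxygen, read 102 and 67.2 in control and 138 and 65.1 in cKO cells. Both arrays numbered 1 were above both numbered 2 in these genes, by 1.67-fold and 1.78-fold, with log2 differences of 0.74 (SE 0.29) and 0.83 (SE 0.34). Their unadjusted limma p values were 0.0298 and 0.0353 and neither passed after adjustment (0.289 and 0.311). The signals of Cox4i2 on the arrays numbered 2 lay just above the filter signal of 63.9.

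Cox6a2, the muscle and heart form of Cox6a, read 179 and 155 in control and 172 and 222 in cKO cells. Cox8b, also a muscle and heart form, read 175 and 186 in control and 196 and 260 in cKO cells. Cox6b2, the testis form of Cox6b, read 220 and 253 in control and 289 and 285 in cKO cells. Both cKO arrays lay above both control arrays for Cox8b and Cox6b2, with log2 differences of 0.32 (SE 0.34) and 0.28 (SE 0.32), and the arrays overlapped for Cox6a2. None passed the test. Muscle fibre markers were highest on control 1 in 10 of 12 genes and lowest on control 2 in 8, an order that Cox7a1 shared. Cox6a2 was highest on cKO 2 and lowest on control 2, as were the other 2 fibre markers, Atp2a1 and Tnnc2. Cox8b was highest on cKO 2 and lowest on control 1. The part of fibre RNA in these values was not tested.

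The remaining tissue forms fell under the filter. Cox7b2 had signals from 0.31 to 2.54 on the 4 arrays. Cox8c had a brighter probe set that read 8.02 and 8.77 in control and 56.0 and 50.3 in cKO cells, and a second one that read 3.37 and 9.10 in control and 5.98 and 1.38 in cKO cells. The genotypes separated in the first set and overlapped in the second, and neither entered the test. Below the filter as well were Ndufaf1, Ndufaf6, Ndufb1 and Ndufb4, with signals from 29.2 to 88.8.

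Ndufa4 and Ndufa4l2 are a pair named after complex I, of which Ndufa4 has since been placed in complex IV. Ndufa4l2 is a paralogue known to be induced by low oxygen and to be abundant in pericytes. Ndufa4 read 1184 and 1424 in control and 1591 and 1274 in cKO cells, lowest on control 1 like most subunits. Ndufa4l2 read 96.9 and 39.0 in control and 208 and 51.9 in cKO cells. Both arrays numbered 1 lay above both numbered 2 for Ndufa4l2, and cKO 1 was the highest, while the genotypes overlapped.

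The difference of Ndufa4l2 between numbers was 3.11-fold, or 1.64 on the log2 scale (SE 0.43). Its unadjusted limma p was 0.00329 and its adjusted limma p 0.0956, the smallest of all respiratory chain probe sets. Its signals on both arrays numbered 2 lay under the filter signal of 63.9, so it passed the filter through the arrays numbered 1. With 32 in place of 1 added to each value before the log, the log2 difference was 1.19. The difference held in both genotypes (both arrays numbered 1 higher). It passed when genotype was fitted as a block, at an adjusted limma p of 0.0303, without control 2 at 0.0326 and without cKO 2 at 0.00832. It did not pass in the other settings that kept it, with an adjusted limma p of 0.0848 without control 1, 0.177 after quantile normalization and 0.130 after median centring. Without cKO 1, its highest array, the log2 difference was 1.09 and the adjusted limma p 0.639. Its genotype difference was 0.75 (SE 0.73). The 5 genes with both arrays numbered 1 above both numbered 2 were Ndufa4l2, Cox4i2, Cox7a1, Ndufaf4 and Uqcrb, the last named after its values were seen. The endothelial and pericyte marker sums given above were also higher on these arrays, with Rgs5 of pericytes at 5200 and 442 in control and 4828 and 649 in cKO cells. The part of such cells in the signals of Ndufa4l2, Cox4i2 and Cox7a1 was not tested.

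**Figure D4:**
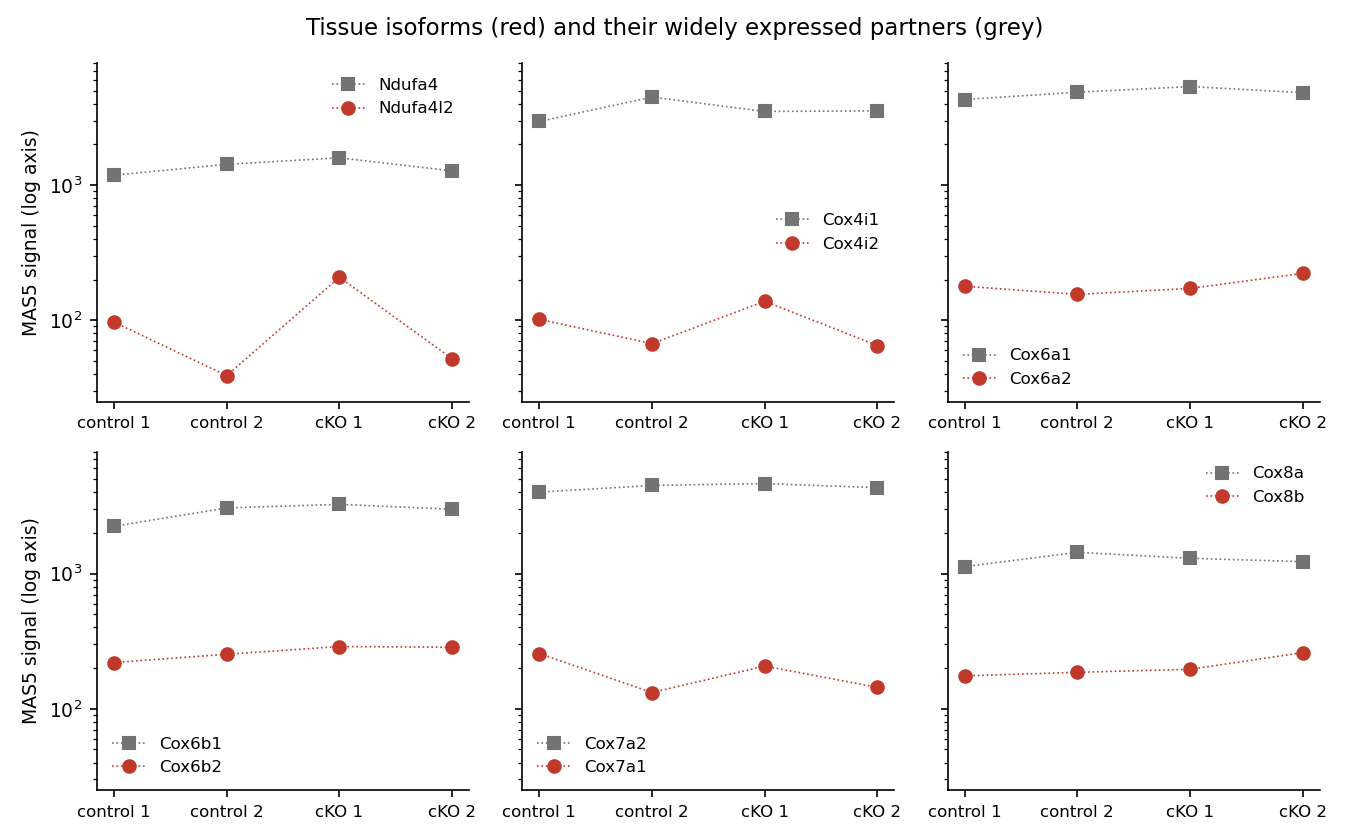
MAS5 signal (y axis, log scale) of tissue forms and of Ndufa4l2 (red circles) and of their widely expressed partners (grey squares) on each of the 4 arrays (x axis), 1 pair a panel. Lines join the arrays of 1 probe set and levels of different probe sets are not comparable; Ndufa4l2, Cox4i2 and Cox7a1 are higher on both arrays numbered 1, which their partners are not.

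Several probe sets of a gene gave a check on the direction. Of 38 genes with several kept probe sets, all sets had the same sign in 29 for the number and in 22 for the genotype. Sets of opposite sign that lay at least 0.5 apart on the log2 scale were found in 6 genes for the genotype (Ndufaf8, Ndufb2, Ndufs4, Ndufs8, Sdhaf2 and Uqcr10) and in 1 for the number (Ndufs4). In 44 of the 71 genes the brightest probe set had a suffix in its name. In 15 of these it was the s or x type, which marks probes shared between genes or open to cross-hybridisation, so these signals may include related transcripts.

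Genes that work beside complexes I to IV but fall outside the symbol prefixes were described in the same way, from lists of 97 genes of which 92 were measured and 88 passed the filter. None passed either limma test, with 0 at an unadjusted p under 0.05 by genotype and 4 by number (4.55%, against 13.5% of all named genes). In cKO cells 52 were higher and 36 lower, and on the arrays numbered 1, 31 were higher and 57 lower. The 18 ATP synthase genes, which form the enzyme that uses the proton gradient, followed the subunits of complex I: cKO was higher in 18 of 18 between the arrays numbered 1 (median 0.36) and lower in 16 between those numbered 2 (median -0.18), and 16 were lowest on control 1. In the 12 citric acid cycle genes the counts were 12 and 11 (medians 0.31 and -0.28), and 7 were lowest on control 1. Over all named genes, 61.7% were higher in the first reading and 67.8% lower in the second. After quantile normalization and median centring the second median was -0.01 and -0.02 for ATP synthase. For the citric acid cycle it was -0.10 and -0.13. The first medians stayed above 0 in both lists.

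The 28 assembly factors outside the prefixes divided into 14 higher and 14 lower in cKO cells, and the 16 electron carrier genes into 9 and 7. Cyc1, the cytochrome c1 of complex III, read 745 and 1039 in control and 1038 and 687 in cKO cells. Cycs, the soluble cytochrome c, read 3070 and 2835 in control and 2955 and 1942 in cKO cells, lowest on cKO 2. Neither had genotypes that did not overlap.

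The 14 regulators of mitochondrial biogenesis had 8 higher and 6 lower in cKO cells, with 5 above on both arrays (35.7%, against 8.53% of all named genes) and 1 below (7.14%, against 12.1%). Ppargc1a, the coactivator known as PGC-1alpha, read 78.1 and 67.4 in control and 116 and 119 in cKO cells, a log2 difference of 0.69 with an unadjusted limma p of 0.111. Gabpa, an ETS factor, read 642 and 605 in control and 716 and 655 in cKO cells. Both cKO arrays were above both control arrays in these 2 genes. Tfam, the mitochondrial transcription factor, spanned 321 to 393, and Nrf1, nuclear respiratory factor 1, spanned 215 to 277, both with genotypes that overlapped.

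**Figure D5:**
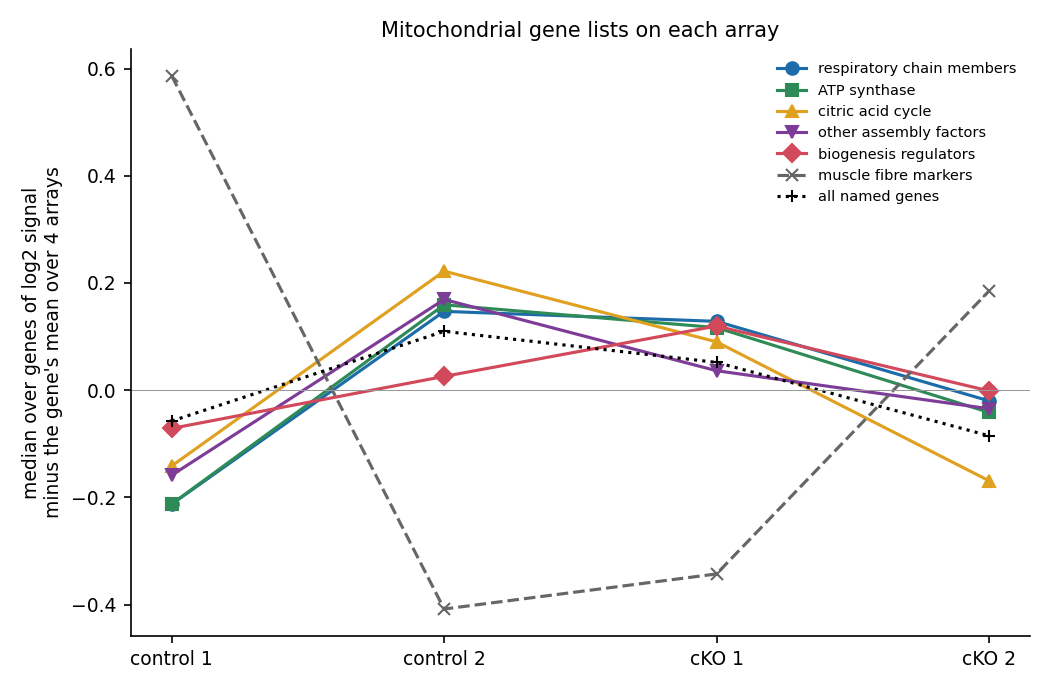
Median over the genes of each list of the log2 signal minus the gene's mean over the 4 arrays (y axis), by array (x axis). The respiratory chain genes, at -0.21 on control 1, and the ATP synthase genes run together, while the muscle fibre markers are highest on control 1, where those are lowest.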

How the data were processed

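The deposited values are signal intensities, 1 per probe set and array, summarised by the authors with MAS5 per the submitters' processing notes. The scaling target and the scanner settings are not given in the sources used here. Total RNA was extracted with RNeasy Mini columns and labelled with biotin by the small sample assay, per the labels' protocols. Gene symbols came from the platform annotation, and 154 of 154 respiratory chain probe sets were found by Entrez identifier in a RefSeq gene table with 0 symbols changed.

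Values were analysed as log2(value + 1) with no further scaling. After removal of 64 AFFX controls, probe sets with a mean log2 value at or above the median were kept (22519). Both comparisons used limma 3.58.1 in R 4.3.3 (lmFit and eBayes, trend on intensity, no block) with Benjamini-Hochberg adjustment over all kept probe sets at 0.05. The fits had 2 residual degrees of freedom, with 5.32 prior ones for genotype and 7.88 for number. Signals were not compared between probe sets. The steps were tested on simulated arrays. The text names, per module and comparison, the 3 genes with the smallest limma p, catalytic subunits, tissue forms with their partners, genes at least 1.5-fold apart without overlap, and genes whose probe sets oppose each other by 0.5; others are named as chosen later. The genes, lists and tests were chosen with earlier results of these data known. Counts within replicate numbers and of the lowest array were added after seeing the data.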

Additional observations from a re-analysis of the deposited data

Results flagged for a closer look

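The difference between cKO and control cells had opposite signs between the arrays numbered 1 and those numbered 2. Over the 71 respiratory chain genes the median log2 difference was 0.36 between the first pair of arrays and -0.19 between the second. The same medians over all named genes were 0.09 and -0.19, so the change of sign was not particular to the respiratory chain genes. By complex, the medians were 0.41 and -0.20 for the subunits of complex I and 0.19 and -0.15 for complex II. They were 0.31 and -0.18 for complex III and 0.21 and -0.046 for complex IV. After quantile normalization the second value was -0.01 over all 71 genes and -0.02 over all named genes. By complex it was then -0.02 for complex I, 0.01 for complex II, -0.04 for complex III and 0.09 for complex IV. With 1 array per genotype and number, this difference was not tested.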

How the results depend on the processing

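With 4 arrays, single genes had a median SE of 0.27 for genotype and 0.22 for number on the log2 scale, which limits what could be called. Over all probe sets, limma called 0 by genotype and 5 with the replicate number as a replicate block, and 0 to 5 when 1 array was left out. None of these were respiratory chain probe sets. The labels do not say that a number marks a shared source, and with 2 pairs the number differences in control and cKO cells correlated at 0.434 over the kept probe sets. By number, 521 probe sets were called, 141 with a filter at the 75th percentile, which tests fewer probe sets, and 252 to 1755 with 1 array left out. Of the respiratory chain probe sets, 0 were called by number, 1 after median centring (Cox7a2l), 1 with genotype as a block (Ndufa4l2) and 0 to 4 with 1 array left out. The genes lower on cKO 2 than on control 2 numbered 58 of 71, but 37 after quantile normalization and 37 of 53 with suffixed probe sets left out. The genes higher on cKO 1 than on control 1, 65 of 71, numbered 65 to 67 under quantile normalization and median centring. The median log2 difference ran from -0.10 to 0.25 by genotype and from -0.29 to 0.08 by number with 1 array left out. With an array left out, the remaining one of its group was taken to have the spread of the other group.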
